A study of Homo sapiens with 2 samples.

Results

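Albumin, the oncofetal markers AFP and GPC3, and 7 abundant plasma carriers and inhibitors of the liver were examined in Huh7, an established human hepatocellular carcinoma line. The 10 genes (ALB, AFP, GPC3, TTR, AHSG, SERPINA1, RBP4, AMBP, HP and VTN) were chosen by symbol, and each was found on 1 row of both deposited tables, among 11976 genes listed. RNA-seq libraries came from Huh7 cells carrying a control shRNA (1 library) and from Huh7 cells carrying an shRNA that knocks down USP22 (1 library). USP22 is the enzyme of the SAGA complex that removes ubiquitin from histones. The shRNA sequences, the way and time of delivery and whether the cells were a pool or a clone are not given in the sources used here. Neither group has a replicate, so no test, error or interval can be given, and every difference is one between 2 libraries.

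Hepatocytes secrete most of the protein of blood plasma. Albumin carries fatty acids, bilirubin and drugs, transthyretin (TTR) and retinol-binding protein (RBP4) travel together with thyroxine and vitamin A, and SERPINA1, AMBP and AHSG encode inhibitors or carriers that are made almost wholly in the liver. AFP is the fetal relative of albumin, silenced in liver after birth and made again by many hepatocellular carcinomas, as is the cell-surface proteoglycan GPC3. In hepatocytes these genes depend on a shared set of factors, among them HNF4A, the FOXA proteins and C/EBP proteins.

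Values were read as FPKM (fragments scaled to transcript length and to library size), which sum to 244301 in control cells and 218955 with USP22 shRNA. USP22 itself was at 58.1 FPKM in control cells and 7.67 FPKM with USP22 shRNA. All 8 hepatocyte markers were listed above 0 in both libraries, and their summed level was 1556 FPKM in control cells and 1107 FPKM with USP22 shRNA. Of these 8, 4 were at least 2-fold lower and none was higher, with the median log2 ratio at -0.67 (3 lower and -0.62 with the GC trend removed, as described below). Over all genes whose mean reached 1 FPKM, 12.2% were lower and 24.1% higher. Of 22 markers of blood, endothelium and stroma, bile ducts and other epithelia, 8 were listed, and the others are not analysed here. The 2 listed stromal markers, COL3A1 and ACTA2, summed to 0.508 and 0.756 FPKM, with ACTA2 at 0 in both libraries. The 2 listed blood markers summed to 388 and 94.3 FPKM, nearly all of it LYZ. CDX2 and VIL1, of intestinal epithelium, summed to 111 and 30.5 FPKM, and SOX9 and EPCAM to 47.2 and 36.6. Other markers of those lineages were among the unlisted ones, and the part of these levels in the results was not tested.

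Across the 10 genes, the summed level was 3015 FPKM in control cells and 1335 FPKM with USP22 shRNA, 2.26-fold lower. This was 1.23% of all listed FPKM in control cells and 0.610% with USP22 shRNA. In bulk RNA, a smaller number of cells expressing a gene and less RNA per cell cannot be told apart. The log2 ratio was taken with 1 FPKM added to both values, which understates the difference of low genes. By it, 6 of the 10 genes were at least 2-fold lower and none was at least 2-fold higher. Of all 10195 genes whose mean reached 1 FPKM, 12.2% were at least 2-fold lower and 24.1% at least 2-fold higher. Of the genes past 2-fold, 66.3% were thus higher, a share that was 52.8% with TMM scaling and 48.6% after GC trend removal. The median log2 ratio was -1.36 over the 10 genes and 0.10 over the 10195. Among the 799 genes whose mean reached 50 FPKM, which hold 9 of these genes (5 of them at least 2-fold lower), 13.9% were at least 2-fold lower, 7.63% were at least 2-fold higher and the median was -0.35.

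**Figure D1:**
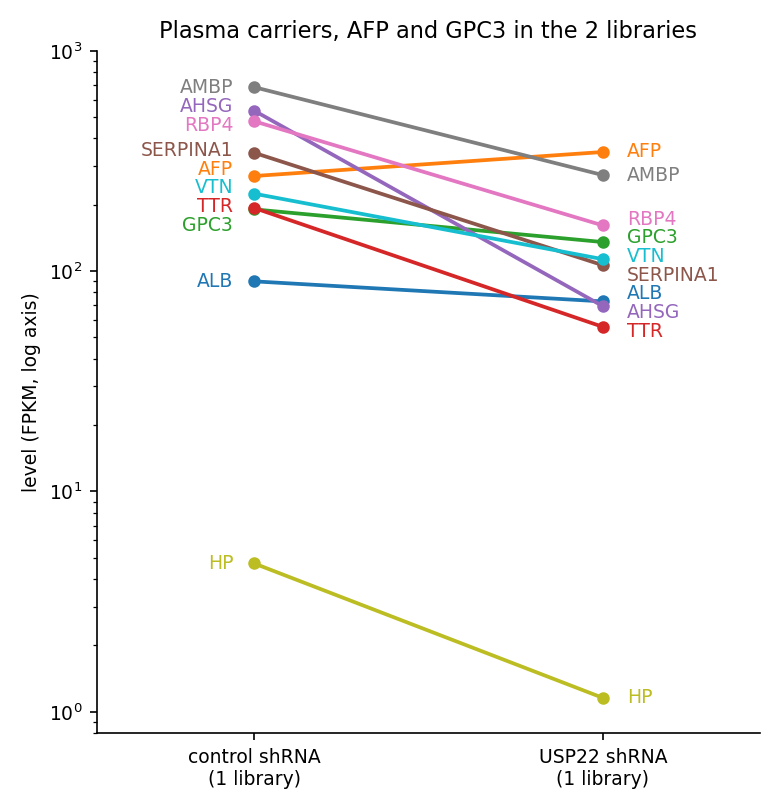
Level of each of the 10 genes in FPKM on a log axis, in the control shRNA library (left) and the USP22 shRNA library (right), with 1 library a group and no error bars. AFP is the only line that goes up, from 270.1 to 347 FPKM (its log2 ratio is -0.92 with the GC trend removed), while AHSG goes down the most, from 535 to 69.3 FPKM.

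The order of the genes differed between the libraries. AMBP led the control at 684 FPKM, followed by AHSG, RBP4, SERPINA1 and AFP. AFP led the USP22 shRNA library, with AMBP, RBP4, GPC3 and VTN after it. AHSG went from place 2 to place 8 among the 10, and from rank 39 to rank 487 of all listed genes. AFP went from place 5 to place 1 among the 10, and from rank 95 to rank 42 of all listed genes. ALB, the most abundant plasma protein in adults, was only at place 9 of the 10 in control cells and place 7 with USP22 shRNA. HP was last in both.

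AFP (ENSG00000081051.7_2, chromosome 4) stood at 270.1 FPKM in control cells and 347 FPKM with USP22 shRNA. ALB (ENSG00000163631.16_3), the neighbouring gene on chromosome 4, stood at 89.9 and 72.8 FPKM. AFP exceeded ALB 3.01-fold in control cells and 4.77-fold with USP22 shRNA, and the log2 ratios of the pair were 0.36 and -0.30. Both were inside 2-fold, in opposite directions as deposited and both below 0 with the GC trend removed (-0.92 and -1.40). The third listed gene of this family was GC, which encodes the vitamin D-binding protein, at 26.4 and 17.4 FPKM with a log2 ratio of -0.57. With the trend in GC content removed this gene was past 2-fold, at -1.59 (-1.51 by the coding sequence). AFM, the fourth gene of the family, is not analysed here.

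GPC3 (ENSG00000147257.13_3, chromosome X), a heparan sulfate proteoglycan anchored to the cell surface, was at 191 FPKM in control cells and 135 FPKM with USP22 shRNA. Its log2 ratio of -0.49 lay inside 2-fold, so neither oncofetal marker passed the size rule. AFP exceeded GPC3 1.42-fold in control cells and 2.56-fold with USP22 shRNA. Among the other glypicans, GPC6 was at 1.85 and 11.5 FPKM (log2 ratio 2.13), while GPC1 and GPC2 were below 1 FPKM in both libraries.

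TTR (ENSG00000118271.9_2, chromosome 18) was at 193 FPKM in control cells and 55.8 FPKM with USP22 shRNA, 3.46-fold lower. RBP4 (ENSG00000138207.13_3, chromosome 10) was at 479 and 161 FPKM, 2.97-fold lower. These proteins form a complex in plasma that keeps retinol-binding protein from being filtered by the kidney. The RBP4 to TTR ratio was 2.48 in control cells and 2.89 with USP22 shRNA, so as deposited the pair differed by similar factors. With the GC trend removed their log2 ratios lay further apart, at -1.02 for RBP4 and -2.11 for TTR. By the GC content of the coding sequence they were at -1.07 and -1.80.

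AHSG (ENSG00000145192.12_2, chromosome 3), the fetuin that binds calcium phosphate in plasma, had the lowest ratio of the 10. It was at 535 FPKM in control cells and 69.3 FPKM with USP22 shRNA, 7.72-fold lower, at rank 22 from the lowest of 10195 genes. In the control AHSG exceeded ALB 5.95-fold, and in the USP22 shRNA library it was at 0.952 of ALB. Of 5 listed genes of the cystatin-related family, AHSG and CST3 were at least 2-fold lower and CSTA was higher. The shares over all genes past the filter were 12.2% lower and 24.1% higher. KNG1, the kininogen gene, was at 4.53 and 4.92 FPKM. Of the cystatins, which inhibit cysteine proteases, CST3 was at 85.5 and 42.2 FPKM, CSTB at 26.9 and 35.1, and CSTA at 2.59 and 6.81. After GC trend removal AHSG and CST3 (-1.48) were lower and none was higher, and KNG1 turned from 0.10 to -0.92. With the GC content of the coding sequence AHSG was the 1 lower gene and CST3 was at -0.37.

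The protease inhibitors SERPINA1 and AMBP were both lower. SERPINA1 (ENSG00000197249.13_3, chromosome 14), which encodes alpha-1-antitrypsin, the main plasma inhibitor of neutrophil elastase, was at 344 FPKM in control cells and 106 FPKM with USP22 shRNA, 3.24-fold lower. AMBP (ENSG00000106927.11_2, chromosome 9) encodes a precursor that is cut into the lipocalin alpha-1-microglobulin and the inhibitor bikunin. It was at 684 and 273 FPKM, 2.51-fold lower.

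VTN (ENSG00000109072.13_3, chromosome 17), the adhesive plasma protein vitronectin, was at 225 FPKM in control cells and 113 FPKM with USP22 shRNA. Its log2 ratio of -0.98 fell just short of the size rule. In GENCODE 29, 329 exon bases of VTN are shared with AC002094.3 on the same strand, and how reads were assigned there is not stated, so the level of VTN is uncertain. HP (ENSG00000257017.4, chromosome 16), the haemoglobin-binding haptoglobin, was at only 4.71 and 1.16 FPKM, with a log2 ratio of -1.41. Its near-identical neighbour HPR was at 2.51 and 1.22 FPKM, so reads of HP and HPR may have been split or exchanged and both values are uncertain.

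The log2 ratio in these libraries followed the GC content of transcripts, with Spearman's rho at -0.70 across 10134 genes (genes are no independent replicates). The 10 genes spanned 38.8% (AFP) to 57.8% (RBP4) GC, and the 2 lowest in GC, AFP and ALB, had the 2 highest log2 ratios. With the trend subtracted by a lowess curve (a local regression over GC content), all 10 log2 ratios were below 0, as were 49.9% of all genes. AFP was then at -0.92 and ALB at -1.40. The direction of AFP therefore depends on this step. GPC3 was at -0.33 and VTN at -0.48.

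After removal of the GC trend, 6 of the 10 genes were again at least 2-fold lower, against 8.92% of 10134 genes, and none was higher, against 8.45%. The same genes in both counts were AHSG (-2.58), TTR (-2.11), HP (-1.38), SERPINA1 (-1.31) and RBP4 (-1.02). AMBP left the count at -0.80 and ALB entered it. The median of the 10 was -1.17. When the GC content of the coding sequence was used in place of the whole transcript, GPC3 was also past 2-fold at -1.09, AFP was at -0.89, ALB at -1.44 and AMBP just inside 2-fold. AHSG, TTR and SERPINA1 were at least 2-fold lower under every setting run. The part of GC content in these differences was not tested.

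**Figure D2:**
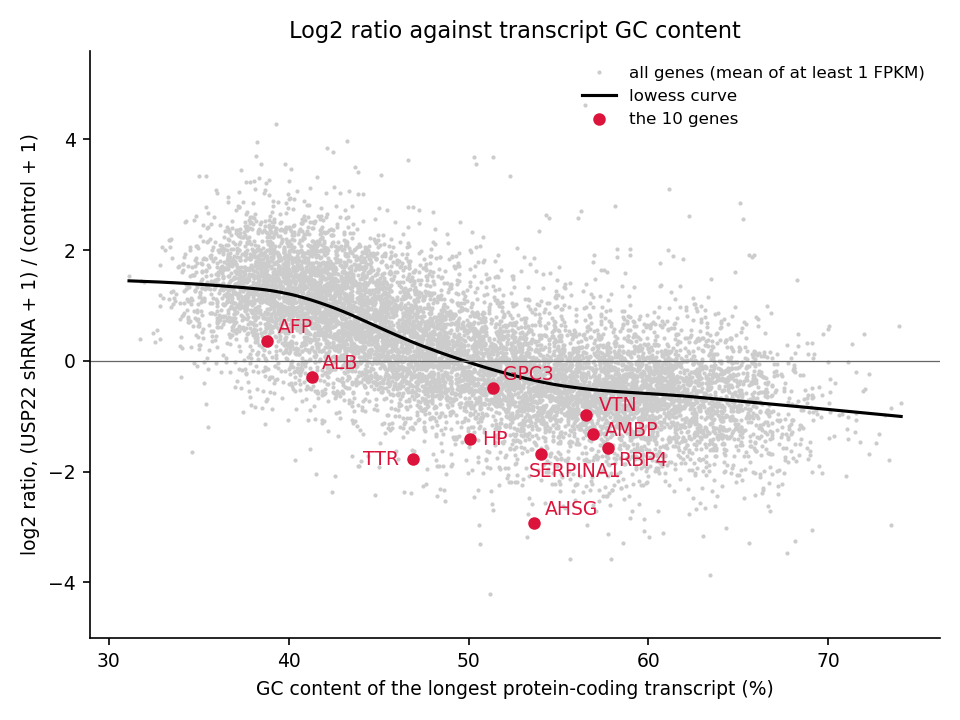
Log2 ratio of each gene whose mean reached 1 FPKM (grey) against the GC content of its longest protein-coding transcript in percent, with a lowess curve (black) and the 10 genes in red. All 10 lie below the curve, from GPC3 at 0.33 log2 units under it (-0.33) to AHSG at 2.58 under it (-2.58), and AFP is the only one above a log2 ratio of 0 before the curve is subtracted.

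**Figure D3:**
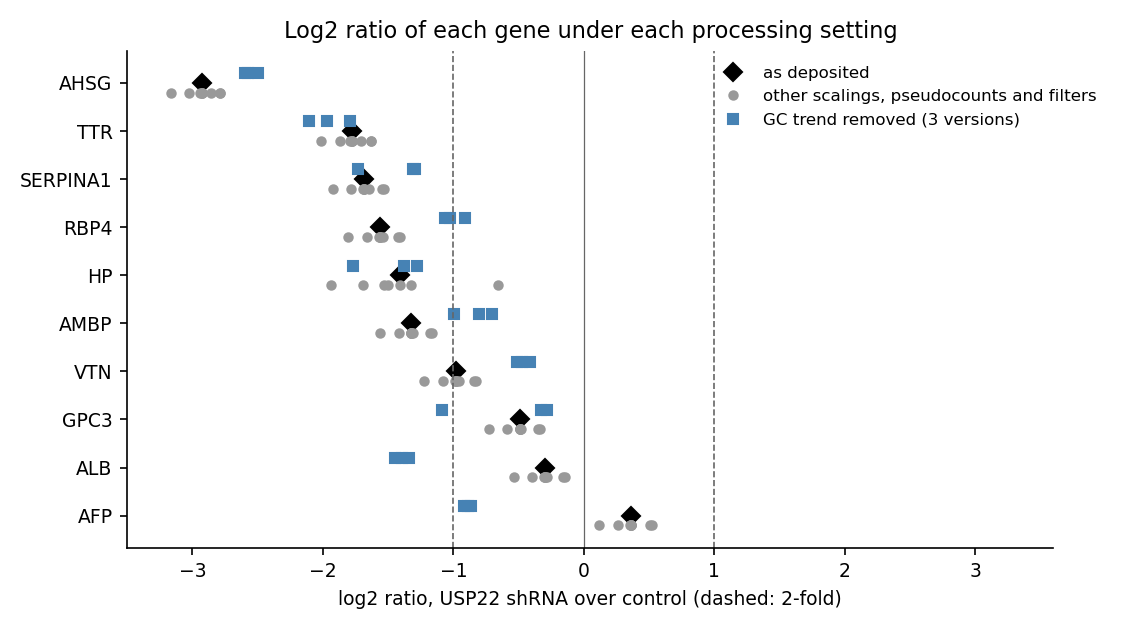
Log2 ratio of each of the 10 genes as deposited (black), with other scalings, pseudocounts and filters (grey) and with 3 versions of GC trend removal (blue), where dashed lines mark 2-fold. AHSG lies between -3.17 and -2.50 throughout, while AFP lies between -0.92 and 0.52 and is below 0 with the GC trend removed.

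Of 23 liver transcription factors past the filter, 8 were at least 2-fold lower and 1 was at least 2-fold higher. Their median log2 ratio was -0.52. Over all genes past the filter 12.2% were at least 2-fold lower and 24.1% higher. CEBPA, the C/EBP protein of differentiated hepatocytes, was at 267 FPKM in control cells and 48.9 FPKM with USP22 shRNA. NR0B2, a nuclear receptor that lacks a DNA-binding domain, was at 2.95 and 0.164 FPKM. HNF4A was at 17.8 and 7.56 FPKM, and FOXA3 had a log2 ratio of -1.40. CEBPG, a C/EBP partner without an activation domain of its own, was the higher factor, at 7.81 and 26.7 FPKM. FOXA1 was at 13.6 and 16.6 FPKM. After removal of the GC trend 6 factors were lower and 1, CREB3L3 (1.39), was higher. With the GC content of the coding sequence in its place, 3 were lower and 3 higher and the median was -0.08, so the excess of lower factors depends on this step. A pseudocount of 5 left 3 lower and 1 higher. CEBPA was at -1.67, HNF4A at -0.85 and FOXA3 at -0.80 with the GC trend of the whole transcript removed (pseudocount of 1).

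Among 13 genes of a list of AFP regulators past the filter, which includes AFP itself, 4 were at least 2-fold lower and none higher. CEBPA, FOXA3 and ZHX2 were among them. The shares over all genes past the filter were 12.2% lower and 24.1% higher. ZHX2, known in mouse as a repressor of Afp after birth, was at 13.6 FPKM in control cells and 4.21 FPKM with USP22 shRNA. Its log2 ratio of -1.49 was -1.28 with the GC trend removed. NR5A2, a nuclear receptor known to act on AFP, was at 2.29 and 3.69 FPKM, and CTNNB1, the beta-catenin gene, at 57.2 and 89.3. Both directions turned with the GC trend removed, from 0.51 to -0.70 for NR5A2 and from 0.63 to -0.32 for CTNNB1. By the GC content of the coding sequence NR5A2 was at -0.05 and CTNNB1 at 0.10, so the turn of CTNNB1 depends on the measure.

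Upstream sequence was available in the RefSeq table (GRCh38.p14) for 7 of the 10 genes, over 10 start sites. It is shown because the factors above recognise short motifs in such regions. The 250 bases before each start were searched on both strands for 4 motifs chosen after the levels were seen. The C/EBP motif was TTGCNNAA, and that of forkhead factors such as FOXA was TGTTTNC. The HNF4 motif was CAAAGTCCA. TATAAA stands for the TATA box. The 140 bases before 1 start of each gene are printed 5′ to 3′ on the gene's strand, with matches on either strand in capitals. For SERPINA1 and RBP4, which have several listed starts, the start with the most matches in this stretch is shown.
ALB (chr4:73404147-73404286, plus strand): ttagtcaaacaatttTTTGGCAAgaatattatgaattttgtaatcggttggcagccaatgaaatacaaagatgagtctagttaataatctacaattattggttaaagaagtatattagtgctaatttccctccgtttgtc
AFP (chr4:73436081-73436220, plus strand): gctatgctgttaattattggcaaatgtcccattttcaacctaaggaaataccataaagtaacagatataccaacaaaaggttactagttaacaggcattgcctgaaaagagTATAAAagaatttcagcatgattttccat
AHSG (chr3:186612920-186613059, plus strand): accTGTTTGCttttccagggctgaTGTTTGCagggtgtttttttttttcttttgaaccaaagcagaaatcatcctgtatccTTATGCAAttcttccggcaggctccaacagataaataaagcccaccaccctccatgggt
SERPINA1 (chr14:94388603-94388742, minus strand): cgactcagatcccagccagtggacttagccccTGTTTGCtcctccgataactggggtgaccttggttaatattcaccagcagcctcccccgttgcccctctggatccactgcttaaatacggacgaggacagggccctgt
RBP4 (chr10:93601236-93601375, minus strand): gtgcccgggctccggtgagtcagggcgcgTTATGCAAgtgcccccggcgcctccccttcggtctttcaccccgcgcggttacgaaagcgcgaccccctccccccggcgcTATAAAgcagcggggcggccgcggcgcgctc
AMBP (chr9:114078301-114078440, minus strand): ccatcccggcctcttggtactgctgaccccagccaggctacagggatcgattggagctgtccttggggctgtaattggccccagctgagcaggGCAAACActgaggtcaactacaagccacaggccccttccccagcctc
VTN (chr17:28370308-28370447, minus strand): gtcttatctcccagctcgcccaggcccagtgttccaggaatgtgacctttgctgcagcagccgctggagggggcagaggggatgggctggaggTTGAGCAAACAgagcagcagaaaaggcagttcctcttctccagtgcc

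The C/EBP motif was found within 250 bases upstream in 5 of the 7 genes (ALB, AFP, AHSG, RBP4 and VTN), against 9.05% of 35116 start sites in the table. Genes with several starts had more windows in which to match. The forkhead motif was found in AHSG, ALB, AMBP, SERPINA1 and VTN, against 15.5% of start sites. AHSG held the HNF4 motif (0.325% of start sites), upstream of the stretch printed. AFP and RBP4 held a TATA box motif (10.7%). In VTN the C/EBP and forkhead matches overlap, and the C/EBP match of AFP and the forkhead match of ALB lie upstream of the stretches printed. The C/EBP motif was present in AHSG, at the lowest ratio, as well as in AFP, at the highest. A match is a run of letters and not a bound site.

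Genes that share a family with the carriers were compared next. Of 6 lipocalin genes past the filter, which include RBP4 and AMBP, all 6 were at least 2-fold lower, against 12.2% of all genes. APOM, a lipocalin of high density lipoprotein, was at 41.4 FPKM in control cells and 4.43 FPKM with USP22 shRNA. The acid glycoproteins ORM1 and ORM2 were at 90.9 and 40.2 FPKM and at 81.1 and 31.9 FPKM, and as near-identical copies they are uncertain one against the other. LCN2, which binds bacterial siderophores, was at 2.29 and 0.355 FPKM. LCN15 was listed at 1.51 and 0.0840 FPKM, below the filter. After removal of the GC trend 3 of the 6 were at least 2-fold lower, namely APOM (-2.88), RBP4 and ORM2 (-1.01). With GC and length trends removed 1 of the 6 was lower (median -0.75), and with the GC content of the coding sequence 5 were (median -1.19).

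The serpin cluster on chromosome 14 was less even. Of 7 listed genes of the cluster, SERPINA1 and SERPINA11 were at least 2-fold lower and SERPINA3 was higher. Counts this small are near the background, with 12.2% of all genes past the filter lower and 24.1% higher. SERPINA3, the antichymotrypsin gene, was at 4.55 FPKM in control cells and 10.2 FPKM with USP22 shRNA. Its log2 ratio of 1.02 was just past the size rule, and no gene of the cluster was past it in this direction with median centring, TMM scaling or a pseudocount of 5. SERPINA11 was at 2.18 FPKM in control cells and listed at 0 with USP22 shRNA. The cortisol carrier SERPINA6 was at 47.1 and 31.8 FPKM, SERPINA5 at 60.0 and 58.9, SERPINA4 at 6.63 and 3.20, and SERPINA10 at 1.41 and 0.654. Less the GC trend, SERPINA1, SERPINA10 (-1.62) and SERPINA11 were lower and SERPINA3 (1.38) was higher. Of 11 other serpin genes, 3 were at least 2-fold lower and none higher, namely SERPING1, the C1 inhibitor (113 and 21.6 FPKM), AGT, angiotensinogen (244 and 71.9), and SERPINC1, antithrombin (22.6 and 7.34). The log2 ratios of 7 others (SERPINF1, SERPIND1, SERPINF2, SERPINH1, SERPINB1, SERPINB6 and SERPINB9) ran from -0.77 to 0.64. With the GC trend removed, 5 of these 11 were lower, the 2 additional ones being SERPINB1 (-1.02) and SERPINB6 (-1.01), and none was higher.

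Other plasma proteins of the liver had a median nearer to 0, though less so among abundant genes. Of 54 genes past the filter, none of them among the 10, 22 were at least 2-fold lower and 6 at least 2-fold higher. Their median log2 ratio was -0.72. Where the mean reached 50 FPKM, the medians lay closer together, at -1.07 for 18 of these other genes and -1.32 for 9 of the 10. The size rule was then passed downward by 10 of those 18 and by 5 of those 9. It was passed upward by 1 of the 18 and by none of the 9. The iron carrier TF was at 249.8 FPKM in control cells and 103 FPKM with USP22 shRNA, and the iron hormone HAMP at 42.5 and 4.56. At the other end was FGG, of fibrinogen (49.4 and 184 FPKM). Among positive acute phase proteins, which rise in inflammation, 7 of 17 were at least 2-fold lower and 2 were higher, the median being -0.72. For these 17 and for the 54, the shares over all genes past the filter were 12.2% lower and 24.1% higher. C3 was at 204 and 68.7 FPKM, whereas SERPINA3 and FGG were the higher members. After GC trend removal 6 of the 17 were lower and 1, SERPINA3, was higher, with FGG inside 2-fold at 0.84. HPX, which binds haem, was at 46.4 and 40.6 FPKM. With the GC trend removed the 54 genes had a median of -0.83, with 23 lower and 2 higher (SERPINA3 and IGFBP2).

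The 54 genes and the 9 plasma protein genes among the 10 were also divided at 45% GC, a bound chosen after the data were seen. Of 19 below it, which include AFP and ALB, 5 were at least 2-fold higher and 2 lower, with a median of 0.45. Of all 3515 genes below it, 56.8% were higher and 0.825% lower, with a median of 1.12. Of 44 above it, 1 was higher and 26 lower, with a median of -1.26. Of all 6619 genes there, 6.75% were higher and 18.2% lower, with a median of -0.33. With the GC trend removed the medians of the 19 and the 44 were -0.65 and -0.95.

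**Figure D4:**
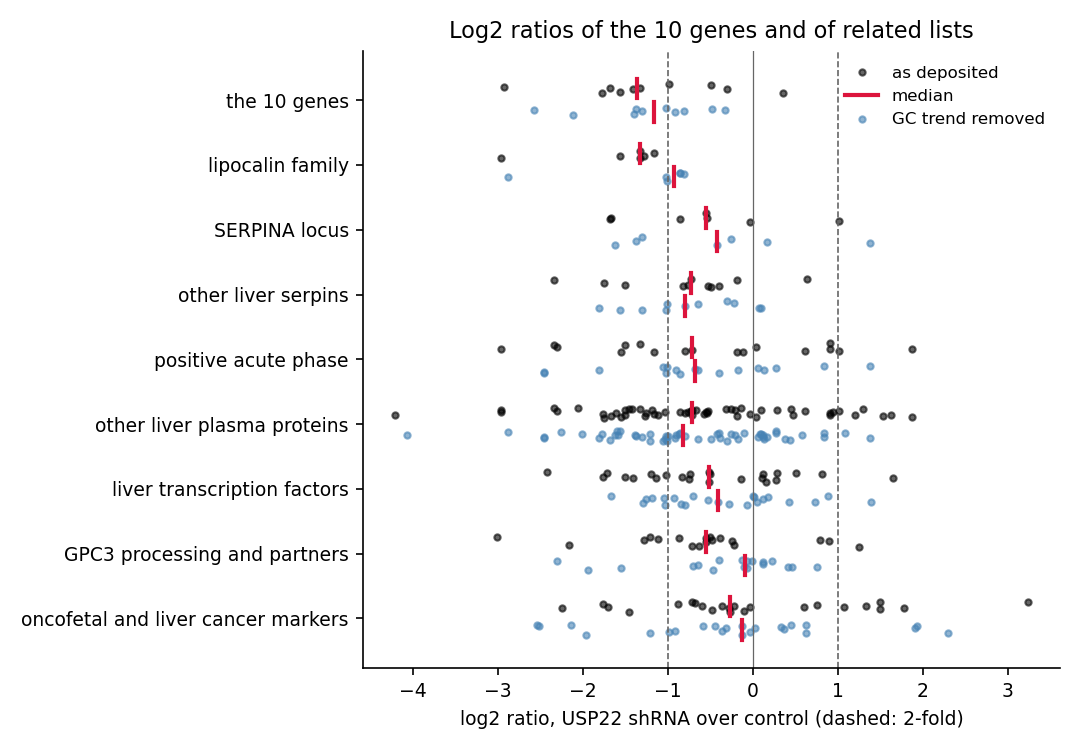
Log2 ratios of the 10 genes and of related lists for genes whose mean reached 1 FPKM, as deposited (black) and with the GC trend removed (blue), with list medians in red and dashed lines at 2-fold. The 10 genes have medians of -1.36 and -1.17, and the 54 other plasma protein genes have medians of -0.72 and -0.83.

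The protein partners of the 10 genes did not share 1 direction. ITIH2, a heavy chain to which bikunin is attached, was at 111 FPKM in control cells and 50.6 FPKM with USP22 shRNA, while FURIN, a protease that cuts precursors including AMBP and GPC3, was at 211 and 149. Of 12 genes of retinol and thyroid hormone handling past the filter, none was at least 2-fold lower, and the nuclear receptors RARB (1.53 and 8.06 FPKM) and THRB (2.63 and 8.09 FPKM) were higher. The shares over all genes past the filter were 12.2% lower and 24.1% higher, so counts this small are near the background. RARB and THRB were inside 2-fold with the GC trend removed, at 0.90 and 0.45. By the GC content of the coding sequence RARB was past it, at 1.29. RBP2, an intracellular retinol-binding protein, was the 1 lower gene by GC content of the whole transcript (-1.02) and of the coding sequence (-1.44). RDH10, an enzyme that oxidises retinol, was at 5.35 and 3.37 FPKM.

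Of 9 genes of haem and haemoglobin scavenging, the ferritin heavy chain FTH1 was lower, at 1354 and 594 FPKM. The others were inside 2-fold, including HMOX1 at 38.1 and 43.5 FPKM and BLVRA at 24.3 and 30.5. A count of 1 in 9 is near the background, as 12.2% of all genes past the filter were lower. Less the GC trend, FTH1 was at -1.15, and the biliverdin reductase BLVRB was the 1 higher gene, at 1.06.

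Of 7 vitronectin partners, the receptor subunits ITGAV and ITGB1 were at least 2-fold higher, in the opposite direction to VTN. Over all genes past the filter 24.1% were higher and 12.2% lower, so counts this small are near the background. ITGAV was at 6.60 FPKM in control cells and 116 FPKM with USP22 shRNA, and ITGB1 at 15.9 and 69.8. ITGB5, which pairs with ITGAV, was at 26.9 and 27.5 FPKM. HABP2 (26.5 and 0.482 FPKM) and CLU (120.4 and 52.2 FPKM) were lower. After removal of the GC trend ITGAV (2.65) was past 2-fold and ITGB1 (0.86) was not, and HABP2 (-4.07) and CLU were lower. CLU was inside 2-fold, at -0.91, with the GC content of the coding sequence.

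Genes that build the heparan sulfate chains of GPC3 or act with it had a median of -0.55 over 18 genes. At least 2-fold lower were 5 of them, and 1 was higher. Over all genes past the filter the shares were 12.2% and 24.1%. The lower genes were all of chain synthesis, as were most genes of the list and the 1 higher gene. B3GALT6, which adds a sugar of the linker, was at 23.1 FPKM in control cells and 1.99 FPKM with USP22 shRNA, and the sulfotransferase HS6ST1 at 9.80 and 1.41. B4GALT7, NDST1 and EXT1 were the others, and the sulfotransferase HS2ST1 was the higher gene, at 5.89 and 15.4 FPKM. EXT2, the partner of EXT1, had a log2 ratio of 0.89. Once the GC trend was removed, B3GALT6 (-2.30), EXT1 (-1.94) and HS6ST1 (-1.55) were lower, none was higher and the median was -0.09. A pseudocount of 5 left 2 lower and none higher.

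Other oncofetal and liver cancer markers did not lie on 1 side either. Of 23 past the filter, 6 were at least 2-fold higher and 4 were lower, the median being -0.27. The shares over all genes past the filter were 24.1% and 12.2%, so these counts are near the background. LIN28B, a fetal RNA-binding protein that blocks let-7 maturation, was at 3.92 FPKM in control cells and 45.5 FPKM with USP22 shRNA. The tight junction protein CLDN6 was at 9.89 and 26.5 FPKM and the fetal RNA-binding protein IGF2BP3 at 1.59 and 6.36. IGDCC4, PROM1 and SPP1 were the other higher genes. AKR1B10, an aldo-keto reductase of liver cancer, was at 28.1 and 5.11 FPKM, and the Wnt inhibitor DKK1 at 36.2 and 10.4, with F2 and DLK1 also lower. SPINK1, a trypsin inhibitor made by liver cancers, was at 547 and 297 FPKM. With the GC trend removed, IGDCC4 (2.30), LIN28B (1.94) and CLDN6 (1.91) were at least 2-fold higher, and DKK1 (-2.53), AKR1B10 (-2.51), SPINK1 (-2.14), HMGA2 (-1.96) and F2 (-1.21) at least 2-fold lower. With a pseudocount of 5, 3 were higher and 3 lower.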

How the data were processed

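The 2 deposited tables, 1 per library, give a single value for each gene beside its identifier and symbol. No unit stands in the header. The deposited values were read as FPKM, an assumption since TPM cannot be told apart from the values alone. HISAT2 2.0.4, StringTie 1.3.0 and GRCh37 are named, without roles, per the submitters' processing notes, and the annotation, the strand setting and the choice of the 11976 genes are not given in the sources used here. Libraries were made from total RNA with a messenger RNA kit, per the labels. Low values multiplied by transcript length showed no clear steps of whole reads (strongest periodicity 0.0657 and 0.0768 on a scale from 0 to 1), so the depth stays unknown and counts were not modelled. In these data that limits precision most at low values.

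A pseudocount of 1, a filter at a mean of 1 FPKM and a size rule of 2-fold were used, with no test. Where a symbol had 2 rows (7 symbols), the one with the higher mean was used. GC content and length came from GENCODE 29, matched by identifier, with values for 98.8% of genes. Its build is GRCh38, so no gene coordinates are printed from it. Its positions were used for the neighbouring genes and for the exon bases shared by VTN and AC002094.3. The GC trend was removed by lowess over a 30% span (statsmodels 0.14.6), and the step was tested on simulated data. Promoter sequence is from RefSeq, GRCh38.p14. The 10 genes, the lists and the tests were chosen with earlier results of these data known. Genes named were the 10, USP22, the 2 highest and 2 lowest of each list, every gene past the size rule in a direction that held 5 or fewer, every measured member of a family or locus, and the 3 genes nearest in level to ALB and to AFP. A few genes within that rule are left out here. Further genes, such as FOXA1, TF, C3, ITGB5 and SPINK1, and the neighbours past 2-fold were named after their values were seen. Alternatives were pseudocounts of 0.1 and 5, median centring, TMM-style scaling (30% of ratios and 5% of levels trimmed), rescaling without mitochondrial genes or to a common total, other filters, GC and length trends, and a 1.5-fold rule.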

Additional observations from a re-analysis of the deposited data

How the results depend on the processing

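Over 11 alternatives planned and 2 added after the data were seen (GC content of the coding sequence, a mean of at least 50 FPKM), between 5 and 7 of the 10 genes were lower past the size rule, 2-fold or 1.5-fold, and none was higher. The median log2 ratio ran from -1.55 (TMM scaling) to -1.10 (GC and length trends removed), and the summed level from -1.42 (TMM scaling) to -1.02 (rescaled to a common total, as for TPM). Single genes crossed 2-fold. HP was at -0.66 with a pseudocount of 5, VTN at -1.08 with median centring and -1.22 with TMM scaling, and RBP4 at -0.91 and AMBP at -0.70 with GC and length trends removed. ALB was at -1.34 in that last setting. The causes were not tested. The median of all genes was 0.10 as deposited, -0.10 with TMM scaling, 0.22 without mitochondrial genes and 0.32 with a common total. Of the values for the related lists, 420 kept their side of 2-fold, or stayed within 1.5 times for counts, and 111 did not. Depth is unknown, so low values such as those of HP carry an unknown counting error. No paired analysis was possible because each group has 1 library.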

Other observations

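The genes that lie beside the 10 on their chromosomes were counted in the same way. Of 36 protein-coding neighbours in GENCODE 29, 2 on each side of each gene and not counting the 10 themselves, 18 were listed and past the filter, of which 4 were at least 2-fold higher and 3 lower, with a median log2 ratio of -0.09. Over all genes past the filter 24.1% were at least 2-fold higher and 12.2% lower, so counts this small are near the background and say nothing particular of the neighbours. Beside ALB and AFP, ANKRD17 was at 2.47 FPKM in control cells and 6.21 FPKM with USP22 shRNA. Beside TTR, the desmosomal cadherins DSG2 and DSG3 were at 2.33 and 12.8 FPKM and at 0.114 and 1.99 FPKM. Beside RBP4, the cytokinesis gene CEP55 was at 2.58 and 19.3 FPKM. The lower neighbours were SERPINA11, the kinesin KIF12 beside AMBP (9.27 and 3.82 FPKM) and the folate transporter SLC46A1 beside VTN (10.7 and 1.95 FPKM). After removal of the GC trend 2 neighbours were higher, CEP55 (1.42) and DSG2 (1.03), and 3 lower, SERPINA10 (-1.62), SLC46A1 (-1.53) and SERPINA11.

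By the distance between pairs of log2 levels over the 2 libraries, the genes nearest to ALB were AAMP, SNRPD2 and RPL27A, at distances of 0.055 to 0.107. Those nearest to AFP were S100A6, XRCC6 and ACTG1, at 0.193 to 0.322. With 2 libraries, such a likeness says only that both levels were similar.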
